A study of Mus musculus with 23 samples.

Results

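Collagen genes of mouse colon were followed through the first days of experimental colitis. They were taken as every gene whose symbol on the array platform reads Col, a number, the letter a and a number. The rule found 42 genes, measured by 82 probe sets, among 18193 genes with a symbol of their own. Of these 42 genes, 27 were bright enough on enough arrays to be tested and 15 were not. By the textbook roles of their proteins, 11 genes were placed among the fibrillar collagens, 8 among the basement membrane collagens and 23 among the others. For the tested genes these numbers were 7, 6 and 14.

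A collagen is a protein of 3 chains wound into a triple helix. Fibrillar collagens assemble into the cable-like fibrils that give connective tissue its tensile strength. Type IV collagen forms the meshwork of basement membranes under epithelium and around vessels, muscle cells and nerves, and types XV and XVIII are anchored in or beside it. The other types form beaded filaments, short-chain networks, anchoring fibrils and links on fibril surfaces, or cross the cell membrane. In the gut wall fibroblasts and smooth muscle cells make most fibrillar collagen, and colitis both breaks down matrix and lays it down.

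All animals were C57BL/6J mice, a common inbred strain, aged 12 to 14 weeks. Colitis was set off with 3% dextran sulfate sodium (DSS) in the drinking water. This sulfated sugar polymer damages the lining of the colon and is a common way to model acute colitis. Separate cohorts gave whole colon tissue on day 0, with 5 animals, and on days 2, 4 and 6, with 6 animals each, and each animal gave 1 array. The sample names call day 0 normal colon, and no cohort kept on plain water to a later day was analysed here. The piece of colon was not given in the sources used here. Arrays are named by day and mouse number. A signal is the authors' scaled intensity of a probe set, and a difference is the later day minus the earlier on the scale of log2(signal + 16), with its standard error. A gene passed where limma's test, adjusted by the Benjamini-Hochberg method over 12464 genes, gave a p of 0.05 or less.

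The arrays carried the epithelial and muscle genes of colon, and also those of squamous epithelium, skeletal muscle and, on some arrays, pancreas. The summed signal of 9 epithelial genes, among them Epcam and Krt8, was between 122373 and 168146 over the 23 arrays, and that of 8 smooth muscle genes was between 68004 and 119518. That of 8 skeletal muscle genes was between 1292 and 74403, and that of 9 genes of squamous epithelium between 809 and 52766. The arrays of day 2 mouse 8 and day 4 mouse 8 were lowest in squamous genes. Pancreatic enzyme genes stood out on day 2 mouse 6 and day 6 mouse 1. For each comparison the number of collagen genes that passed is also given without these 4 arrays. They stand apart in opposite ways, low in squamous genes or high in pancreatic ones. Because whole tissue was measured, more cells of a type and more RNA per cell cannot be told apart.

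On day 2 none of the 27 tested collagen genes passed against day 0. Of all 12464 genes 10 did, which is 0.0802%, with 0.016% higher and 0.0642% lower. At an unadjusted p under 0.05 there were 2 collagen genes, against 12.8% of all genes. The first of these was Col5a3, with a difference of -0.59 ± 0.17 and an adjusted p of 0.128. The other was Col18a1, with a difference of 0.55 ± 0.18 and an adjusted p of 0.186. The median difference of the 27 genes was -0.08, beside 0.01 for all genes tested. Without the 4 arrays that stood apart 0 collagen genes passed, where 0.0241% of all genes did.

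By day 4 collagen genes had risen, and with the brightest probe set of each gene these were mainly of basement membrane and the others. Of the 7 fibrillar genes 1 rose, or 14.3%, a share near the 12.1% of all genes that rose. Against day 0, 10 of the 27 rose, or 37.0%, and none fell. Among all genes 16.4% passed in this comparison, 12.1% higher and 4.32% lower. The genes that rose were 4 of basement membrane (Col4a1, Col4a2, Col4a5 and Col18a1), 1 fibrillar gene (Col5a2) and 5 others (Col6a1, Col6a2, Col6a3, Col8a2 and Col12a1). In 5 genes, or 18.5%, every array of day 4 lay above every array of day 0, which held for 7.61% of all genes. In no collagen gene did all of day 4 lie below day 0, which held for 2.45% of all genes. The median difference was 0.40, beside 0.06 for all genes. The count dropped to 6 when day 0 mouse 5 was left out, and likewise for mouse 3 or mouse 4 of day 4. For these fits the share of all genes is not given. The count was 12 without the 4 arrays that stood apart, where 17.5% of all genes passed. With the lowest-mean probe set of each gene it was also 12, where 17.1% of all genes passed. Col1a1, Col1a2, Col3a1 and Col27a1 then passed, with differences of 0.68, 0.92, 0.65 and 0.62, and Col4a5 and Col12a1 did not. The number of fibrillar genes that passed on day 4 therefore depended on the probe set, as did the ranking of the classes.

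Collagen genes also rose between days 2 and 4. Against day 2, 13 of the 27 genes rose on day 4 and none fell, where 13.5% of all genes passed, 9.43% higher and 4.09% lower. In 10 genes, or 37.0%, the day 4 arrays all lay above the day 2 arrays, against 4.2% of all genes, and in none did they all lie below, against 1.08% of all genes. The 13 genes were 4 fibrillar, 3 of basement membrane and 6 others. The count was 7 when mouse 1 or mouse 4 of day 4 was left out. It was 8 without day 4 mouse 3 or day 2 mouse 7. Here too the share of all genes is not given. The count was 10 without the 4 arrays that stood apart, where 11.2% of all genes passed. The comparisons of day 4 with day 0 and with day 2 share the day 4 arrays.

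The most collagen genes passed on day 6. Against day 0, 14 of 27 genes rose, or 51.9%, and none fell. Among all genes 32.4% passed, 18.1% higher and 14.3% lower. The 14 were 6 of 7 fibrillar genes, 3 of 6 basement membrane genes and 5 of 14 others. In 8 genes, or 29.6%, every day 6 array lay above every day 0 array, which held for 9.94% of all genes. In none did every day 6 array lie below, which held for 6.64% of all genes. The median difference was 0.44, beside 0.02 for all genes. The count was 16 without the 4 arrays that stood apart, where 33.7% of all genes passed.

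From day 4 to day 6 fibrillar and basement membrane genes rose and none of the others did. Of the 27 genes 7 rose and 2 fell on day 6 against day 4, where 22.8% of all genes passed, 9.09% higher and 13.7% lower. The 7 that rose were 4 fibrillar genes (Col3a1, Col5a1, Col5a2 and Col5a3) and 3 of basement membrane (Col4a1, Col4a2 and Col18a1). The 2 that fell were Col4a5 and Col8a2, and Col8a2 was the 1 collagen gene whose day 6 arrays all lay below those of day 4, which held for 4.5% of all genes. In no collagen gene did they all lie above, which held for 3.13% of all genes. The median difference from day 4 to day 6 was 0.41 in the 7 fibrillar genes, 0.16 in the 6 basement membrane genes and -0.03 in the 14 others, beside -0.03 for all genes. Whether the groups differed was not tested. With the lowest-mean probe set of each gene 4 genes passed (Col4a2, Col5a3, Col8a2 and Col18a1), where 16.9% of all genes did. Col3a1, Col4a1, Col4a5, Col5a1 and Col5a2 then had adjusted p of 0.0642, 0.391, 0.162, 0.0575 and 0.0659. The count was 8 without the 4 arrays that stood apart, where 17.7% of all genes passed.

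**Figure D1:**
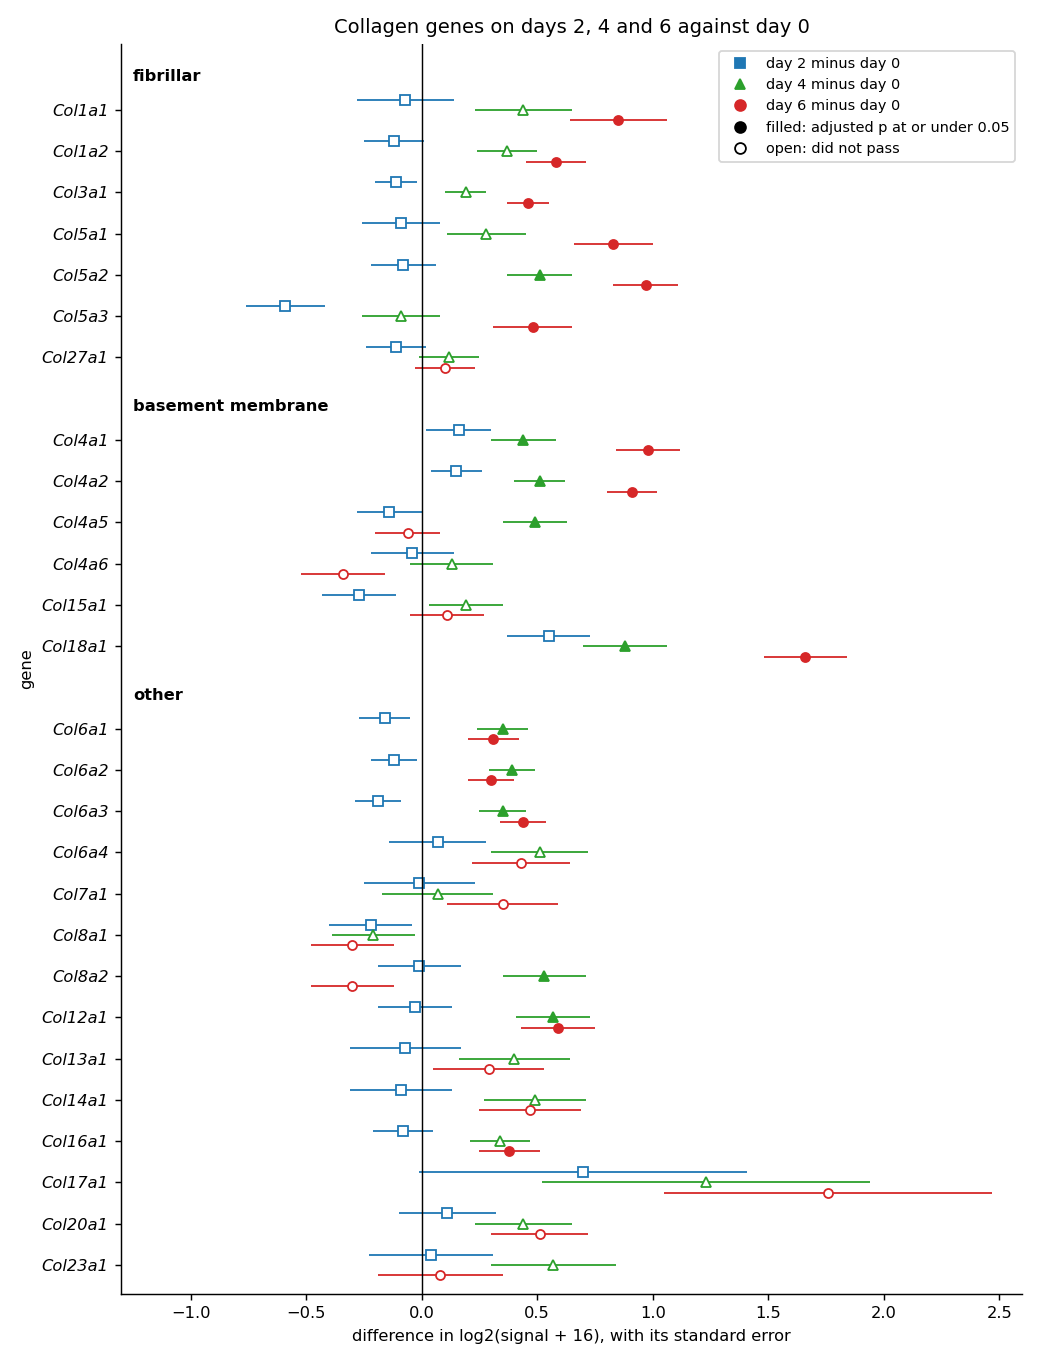
Difference of each of the 27 tested collagen genes from day 0 on days 2, 4 and 6 (x axis, log2(signal + 16), with its standard error as a bar), grouped as fibrillar, basement membrane and other genes (y axis). Filled symbols passed and open symbols did not. Day 2 lies around 0, day 4 lies above it for 25 of 27 genes, and Col18a1 reaches 1.66 on day 6.

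Control measurements of the arrays moved over the same days. The log2 ratio of the 3' to the 5' beta-actin probe set, a measure of RNA length, had medians of 0.43, 0.44, 0.61 and 0.50 on days 0, 2, 4 and 6. It ranged from 0.53 to 0.70 on day 4 and from 0.40 to 0.45 on day 0. The mean log2 signal of 18 probe sets for hybridization controls, transcripts added in a fixed amount, had medians of 11.38, 11.36, 11.04 and 10.89. Neither measure overlapped between day 0 and days 4 or 6, so their part in a difference and that of the day cannot be told apart there. With the beta-actin ratio as a covariate in the fit, 0 of 27 genes passed on day 4 and 11 on day 6 against day 0, where 0.642% and 26.7% of all genes passed. With the level of the hybridization controls, 1 gene (Col4a5) passed on day 4 and 5 on day 6, namely Col4a1, Col4a2, Col5a2, Col6a4 and Col18a1, where 1.37% of all genes passed on day 4 and 8.56% on day 6. For day 4 against day 2 the beta-actin ratio left 0 genes (0.233% of all genes) and the hybridization controls 1 (0.449%). For day 6 against day 4 they left 5 (12.2%) and 9 (20.6%).

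Among the fibrillar genes, those of types I, III and V rose by day 6 and Col27a1 did not pass. Col1a1 and Col1a2 encode the chains of type I collagen, the main collagen of fibrils, and Col3a1 that of type III, which is abundant in extensible organs such as the gut wall. Signals of Col1a1 were 2215, 2943, 2382, 2068 and 2267 on day 0. They ranged from 1848 to 2673 (median 2196) on day 2, from 2288 to 3864 (median 3371) on day 4 and from 2653 to 8886 (median 3816) on day 6. Day 6 mouse 21 was far above the other animals of its day, and day 6 mouse 3 lay below the highest animal of day 0. From day 0 to day 6 the difference was 0.85 ± 0.21, a fold of 1.8 (adjusted p = 0.00282). On day 4 it was 0.44 ± 0.21 (adjusted p = 0.153).

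Col1a2 signals were 5887, 6984, 5844, 6358 and 5516 on day 0. They ranged from 5158 to 6081 (median 5695) on day 2, from 6322 to 9532 (median 8313) on day 4 and from 7096 to 13927 (median 8632) on day 6. All animals of day 6 were above all of day 0, and all of day 4 above all of day 2. Against day 0, day 6 differed by 0.58 ± 0.13, a fold of 1.49 (adjusted p = 0.00171). On day 4 it was 0.49 ± 0.13 from day 2 (adjusted p = 0.0159) and 0.37 ± 0.13 from day 0 (adjusted p = 0.0592).

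Col3a1 signals were 12926, 16079, 15479, 15424 and 13267 on day 0. They ranged from 11578 to 14313 (median 13838) on day 2, from 14350 to 20336 (median 16932) on day 4 and from 17230 to 24848 (median 19476) on day 6. Days 0 and 6 did not overlap, and neither did days 2 and 4. Col3a1 on day 6 differed by 0.46 ± 0.09 from day 0 (adjusted p = 0.000653) and by 0.27 ± 0.09 from day 4 (adjusted p = 0.0345). On day 4 it was 0.30 ± 0.09 from day 2 (adjusted p = 0.0295). The step from day 2 to day 4 did not pass without day 2 mouse 7 or day 4 mice 1, 3 or 4 (adjusted p up to 0.0898). That from day 4 to day 6 did not pass without day 4 mice 1, 7 or 8 or day 6 mice 4, 7 or 21 (up to 0.0958).

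Start sites of Col1a2 and Col3a1 were among those in the RefSeq promoter table (build GRCm38.p6), which had an entry for 23 of the 27 tested genes. The 250 bases before the start of both are shown because these chains of fibrils both rose by day 6. They run 5′ to 3′ on the strand of the gene. Capitals mark the CCAAT box, reverse form ATTGG. They also mark the letters of a TATA box, here TATAAA, reverse form TTTATA. The last motif marked is the GC box, here GGGCGG, whose reverse form is CCGCCC. The Col1a2 stretch is chr6:4505368-4505617 on the plus strand and the Col3a1 stretch is chr1:45311288-45311537 on the plus strand.
Col1a2: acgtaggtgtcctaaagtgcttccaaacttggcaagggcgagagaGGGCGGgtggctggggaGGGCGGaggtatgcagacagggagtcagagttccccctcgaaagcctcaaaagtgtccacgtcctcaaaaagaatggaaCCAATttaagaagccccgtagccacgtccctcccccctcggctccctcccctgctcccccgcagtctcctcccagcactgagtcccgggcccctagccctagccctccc
Col3a1: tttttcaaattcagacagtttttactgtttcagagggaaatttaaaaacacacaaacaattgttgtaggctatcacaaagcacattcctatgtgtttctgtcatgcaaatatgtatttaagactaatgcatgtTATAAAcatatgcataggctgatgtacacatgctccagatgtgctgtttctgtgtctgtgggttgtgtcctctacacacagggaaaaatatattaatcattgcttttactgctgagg

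The Col1a2 stretch held 1 CCAAT and 2 GGGCGG and no TATAAA, and that of Col3a1 held 1 TATAAA and neither of the other motifs. Among the 32851 start sites of the table, 33.8% had CCAAT, 12.4% had TATAAA and 32.7% had GGGCGG in this window on either strand. Of the 23 collagen genes, 10 had CCAAT, 3 had TATAAA and 15 had GGGCGG before at least 1 start. A match of letters is a description and shows no binding.

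Type V collagen is built into type I fibrils and limits their thickness, and all 3 of its genes rose on day 6. Col5a2 had signals of 2054, 2541, 2348, 2546 and 2051 on day 0. They ranged from 1939 to 2412 (median 2153) on day 2, from 2456 to 3891 (median 3473) on day 4 and from 3515 to 6974 (median 4277) on day 6. Every day 6 animal lay above every day 0 animal, and 5 of 6 day 4 animals did. Col5a2 differed from day 0 by 0.51 ± 0.14 on day 4 (adjusted p = 0.0167) and by 0.97 ± 0.14 on day 6, a fold of 1.96 (adjusted p = 1.89e-05). The step from day 2 to day 4 was 0.60 ± 0.14 (adjusted p = 0.00883). That from day 4 to day 6 was 0.46 ± 0.14 (adjusted p = 0.0175), which became 0.0526 without day 4 mouse 8.

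Col5a1 ranged from 1122 to 1531 on day 0, from 940 to 1425 on day 2, from 1295 to 2018 on day 4 and from 1748 to 3914 on day 6. The medians were 1323, 1315, 1614 and 2271. All animals of day 6 were above all of day 0. Col5a1 on day 6 differed by 0.83 ± 0.17 from day 0 (adjusted p = 0.00062) and by 0.55 ± 0.16 from day 4 (adjusted p = 0.0162).

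Col5a3 had its lowest median on day 2. Its signals ranged from 387 to 583 on day 0, from 221 to 394 on day 2, from 374 to 596 on day 4 and from 505 to 1031 on day 6. The medians were 485, 311, 422 and 657. On day 2, 5 of 6 animals lay below every day 0 animal, and this difference did not pass. Col5a3 on day 6 differed by 0.48 ± 0.17 from day 0 (adjusted p = 0.031) and by 0.57 ± 0.16 from day 4 (adjusted p = 0.013). That on day 4 from day 2 was 0.50 ± 0.16 (adjusted p = 0.0417). The day 6 call against day 0 did not hold without day 0 mice 3 or 4 or day 6 mice 21 or 29, with adjusted p up to 0.0905. The step from day 2 to day 4 did not hold without any 1 of day 2 mice 6, 7 or 8 or day 4 mice 1, 3 or 4, with adjusted p up to 0.12.

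Col27a1 encodes a fibrillar chain best known from cartilage. It ranged from 407 to 648 on day 0, from 379 to 614 on day 2, from 481 to 614 on day 4 and from 467 to 707 on day 6. The days overlapped throughout and the difference on day 6 from day 0 was 0.10 ± 0.13 (adjusted p = 0.598). The remaining fibrillar genes, Col2a1, Col11a1 and Col11a2 of cartilage and Col24a1, were too dim to be tested.

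**Figure D2:**
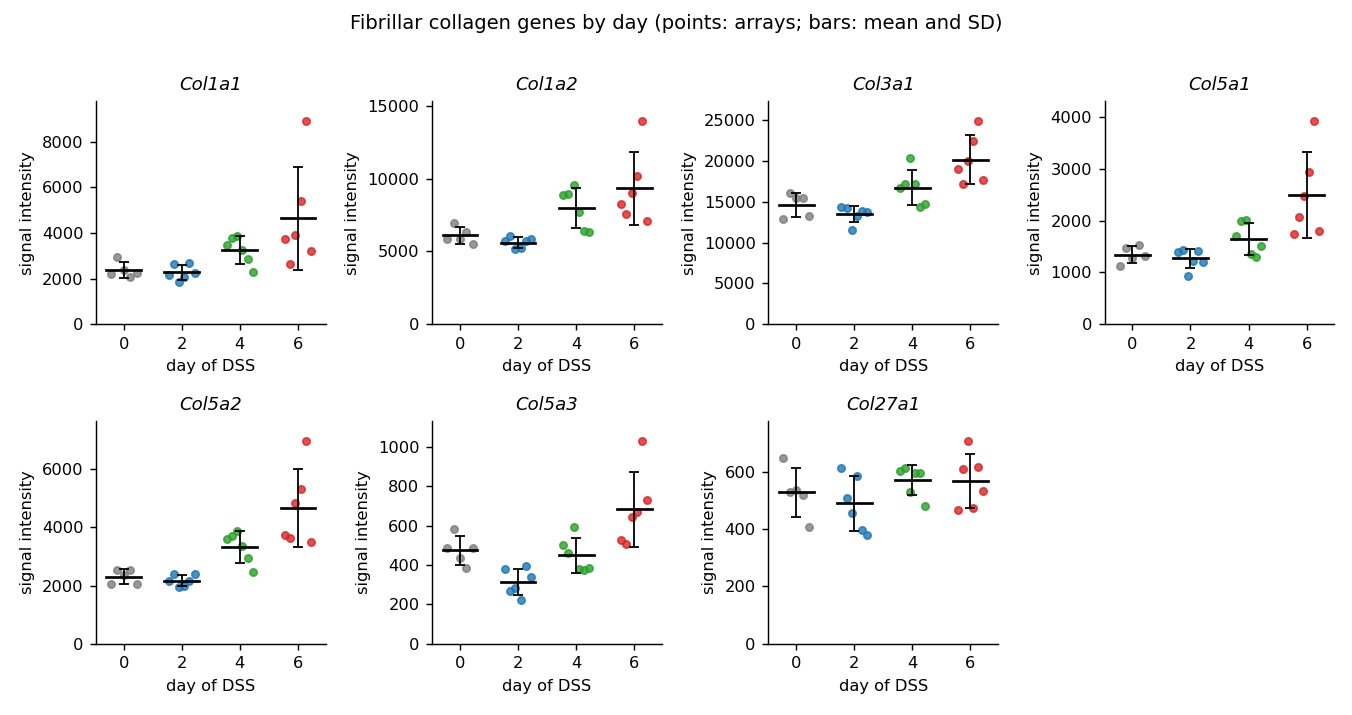
Signal intensity (y axis, from 0) of the 7 tested fibrillar collagen genes by day of DSS (x axis). Each point is 1 array, and the black bars are the mean and SD of 5 arrays on day 0 and 6 on each later day. In Col1a2, Col3a1, Col5a1 and Col5a2 every day 6 point lies above the day 0 points, and 1 array, day 6 mouse 21, is the highest in the 6 genes that rose.

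Of the basement membrane genes, Col18a1 had the largest difference of any collagen gene that passed. Type XVIII collagen carries heparan sulfate chains, and its end fragment, endostatin, is known to restrain vessel growth. Signals of Col18a1 were 666, 991, 745, 923 and 742 on day 0. They ranged from 893 to 1287 (median 1273) on day 2, from 1288 to 1903 (median 1491) on day 4 and from 1706 to 4524 (median 2562) on day 6. The animals of day 4 were all above those of days 0 and 2, while 5 of 6 animals of day 2 were above those of day 0. The difference from day 0 was 0.88 ± 0.18 on day 4 (adjusted p = 0.00189) and 1.66 ± 0.18 on day 6, a fold of 3.17 (adjusted p = 3.25e-07). The step from day 4 to day 6 was 0.78 ± 0.17 (adjusted p = 0.00188).

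Col4a1 and Col4a2 encode the chains of the common type IV network, and both rose on days 4 and 6 against day 0. In the RefSeq table their starts lie on opposite strands of chromosome 8, 21 bases apart. Signals of Col4a1 were 3935, 4831, 3760, 4649 and 4454 on day 0. They ranged from 3551 to 5493 (median 5120) on day 2, from 5078 to 6758 (median 5849) on day 4 and from 6374 to 11521 (median 8409) on day 6. All animals of days 4 and 6 were above those of day 0. Col4a1 differed from day 0 by 0.44 ± 0.14 on day 4 (adjusted p = 0.0282) and by 0.98 ± 0.14 on day 6, a fold of 1.97 (adjusted p = 8.27e-06). From day 4 to day 6 the difference was 0.54 ± 0.13 (adjusted p = 0.00396), and that from day 2 to day 4 was 0.28 ± 0.13 (adjusted p = 0.149). The day 4 call did not hold without day 0 mice 1 or 3 or day 4 mice 1, 3 or 4, with adjusted p up to 0.0779.

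Signals of Col4a2 were 2317, 2768, 2376, 2495 and 2469 on day 0. They ranged from 2393 to 3212 (median 2712) on day 2, from 3178 to 4119 (median 3534) on day 4 and from 3623 to 6310 (median 4687) on day 6. Here too days 4 and 6 were wholly above day 0. The difference from day 0 was 0.51 ± 0.11 on day 4 (adjusted p = 0.00277) and 0.91 ± 0.11 on day 6, a fold of 1.88 (adjusted p = 1.32e-06). The step from day 4 to day 6 was 0.40 ± 0.10 (adjusted p = 0.00734). That from day 2 to day 4 was 0.36 ± 0.10 (adjusted p = 0.0265) and did not hold without day 2 mouse 7 or day 4 mice 1, 3 or 4, with adjusted p up to 0.0749.

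Col4a5, a chain of the networks found in kidney and around smooth muscle, was higher on day 4 and not on day 6. Its signals were 1057, 1136, 1102, 1133 and 1022 on day 0. They ranged from 804 to 1302 (median 968) on day 2, from 1155 to 1883 (median 1582) on day 4 and from 871 to 1421 (median 994) on day 6. Day 4 lay wholly above day 0 and overlapped the other days. Col4a5 on day 4 differed by 0.49 ± 0.14 from day 0 (adjusted p = 0.023) and by 0.63 ± 0.14 from day 2 (adjusted p = 0.00705). On day 6 it was -0.54 ± 0.14 from day 4 (adjusted p = 0.00588) and -0.06 ± 0.14 from day 0 (adjusted p = 0.796). The day 4 call against day 0 did not hold without day 0 mouse 5 or day 4 mice 3 or 4, with adjusted p up to 0.0607. With the beta-actin ratio as a covariate the day 4 difference from day 0 turned to -0.06 (adjusted p = 0.925). The dimmer probe set of Col4a5 passed in no comparison, with differences of 0.10 ± 0.16 on day 4 from day 0 and -0.32 ± 0.15 on day 6 from day 4.

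Smooth muscle genes also moved over these days. Of 8 such genes, among them Myh11 and Des, 5 rose on day 4 against day 0, 0 passed on day 4 against day 2 or on day 6 against day 0, and 6 fell on day 6 against day 4. Over all genes 12.1% rose on day 4 against day 0 and 13.7% fell on day 6 against day 4. Their summed signal had medians of 83876, 96691, 100412 and 80060 on days 0, 2, 4 and 6, with ranges of 77257 to 87615, 88893 to 102526, 92421 to 119518 and 68004 to 99044. The part of smooth muscle in the course of Col4a5 was not tested.

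Col4a6 lies beside Col4a5 on chromosome X, and its chain joins that of Col4a5 in smooth muscle basement membranes. It ranged from 210 to 413 on day 0, from 234 to 434 on day 2, from 289 to 377 on day 4 and from 190 to 351 on day 6. The days overlapped. Col4a6 on day 6 differed by -0.47 ± 0.17 from day 4 (adjusted p = 0.0553) and by -0.34 ± 0.18 from day 0 (adjusted p = 0.167). The comparison with day 4 passed with the mean of probe sets, quantile normalization or median centring. It also passed with only the days compared in the fit and with mouse number as a replicate block. The starts of Col4a5 and Col4a6 in RefSeq are 1343 bases apart, on opposite strands and facing away from each other. The 250 bases before each are shown because both lie between these starts, with the same motifs in capitals. They are chrX:141475169-141475418 on the plus strand for Col4a5 and chrX:141474077-141474326 on the minus strand for Col4a6.
Col4a5: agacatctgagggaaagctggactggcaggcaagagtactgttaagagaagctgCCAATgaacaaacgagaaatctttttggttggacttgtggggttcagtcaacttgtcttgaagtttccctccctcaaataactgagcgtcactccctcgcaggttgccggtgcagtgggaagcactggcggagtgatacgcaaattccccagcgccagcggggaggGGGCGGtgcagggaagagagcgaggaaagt
Col4a6: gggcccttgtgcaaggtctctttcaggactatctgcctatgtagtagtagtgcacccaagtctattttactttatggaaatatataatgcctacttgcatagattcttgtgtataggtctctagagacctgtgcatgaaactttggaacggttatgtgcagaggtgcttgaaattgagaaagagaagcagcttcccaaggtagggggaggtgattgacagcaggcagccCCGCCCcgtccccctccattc

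The Col4a5 stretch held 1 CCAAT and 1 GGGCGG. The Col4a6 stretch held 1 GGGCGG, in its reverse form, and no CCAAT, and TATAAA was in neither. Col15a1, a collagen of the outer face of basement membranes, passed in 1 comparison. Its signals ranged from 364 to 645 on day 0, from 328 to 465 on day 2, from 429 to 635 on day 4 and from 318 to 648 on day 6. The days overlapped. Col15a1 on day 4 differed from day 2 by 0.45 ± 0.15 (adjusted p = 0.0463), and leaving out any 1 of 14 of the 23 arrays took it past the threshold, to an adjusted p of up to 0.109. Col4a3 and Col4a4, chains known from kidney and lung, were too dim to be tested.

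**Figure D3:**
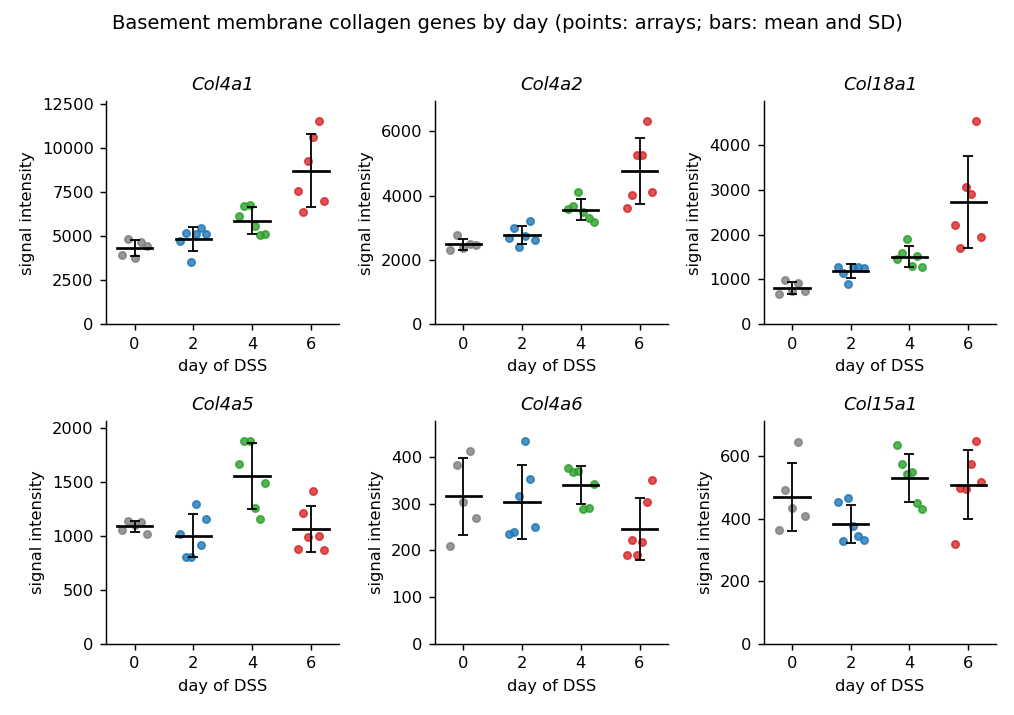
Signal intensity (y axis, from 0) of the 6 tested basement membrane collagen genes by day of DSS (x axis). Each point is 1 array, and the black bars are the mean and SD of 5 arrays on day 0 and 6 on each later day. Col4a1, Col4a2 and Col18a1 have their highest means on day 6, with a Col18a1 median of 2562, whereas Col4a5 has its highest mean on day 4.

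In the third group 3 of 4 tested type VI genes rose on days 4 and 6 against day 0, and none passed between days 4 and 6. Type VI collagen forms beaded filaments around cells of connective tissue and muscle, from the chains of Col6a1, Col6a2 and Col6a3. Col6a3 signals were 3093, 3968, 3374, 3584 and 3201 on day 0. They ranged from 2641 to 3268 (median 3043) on day 2, from 3852 to 5235 (median 4399) on day 4 and from 3702 to 6069 (median 4559) on day 6. Day 4 lay wholly above day 2, and days 4 and 6 each overlapped day 0. The difference from day 0 was 0.35 ± 0.10 on day 4 (adjusted p = 0.0163) and 0.44 ± 0.10 on day 6 (adjusted p = 0.00152). On day 4 it was 0.54 ± 0.09 from day 2 (adjusted p = 0.00224), and on day 6 it was 0.08 ± 0.09 from day 4 (adjusted p = 0.578).

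Col6a1 ranged from 3815 to 4757 on day 0, from 3306 to 3995 on day 2, from 4507 to 6355 on day 4 and from 4062 to 6837 on day 6. Day 4 was wholly above day 2. Col6a1 differed from day 0 by 0.35 ± 0.11 on day 4 (adjusted p = 0.0294) and by 0.31 ± 0.11 on day 6 (adjusted p = 0.0293), and that on day 4 from day 2 was 0.51 ± 0.10 (adjusted p = 0.00504). Both calls against day 0 did not hold without day 0 mice 1, 3 or 5. The day 4 call also did not hold without day 4 mice 1, 3 or 4, and the day 6 call without day 6 mice 4, 7 or 21, with adjusted p up to 0.0782 on day 4 and 0.085 on day 6.

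Col6a2 ranged from 3683 to 4812 on day 0, from 3431 to 4152 on day 2, from 4552 to 5940 on day 4 and from 4061 to 6290 on day 6. Day 4 was again wholly above day 2. Col6a2 differed from day 0 by 0.39 ± 0.10 on day 4 (adjusted p = 0.0105) and by 0.30 ± 0.10 on day 6 (adjusted p = 0.0263), and that on day 4 from day 2 was 0.52 ± 0.10 (adjusted p = 0.0036). The day 6 call did not hold without day 0 mice 1, 3 or 5 or day 6 mice 7 or 21, with adjusted p up to 0.0832. For Col6a4, a further chain of type VI, all animals of days 4 and 6 were above day 0. It ranged from 213 to 242 on day 0, from 116 to 437 on day 2, from 266 to 425 on day 4 and from 250 to 390 on day 6. Its differences from day 0 were 0.51 ± 0.21 on day 4 (adjusted p = 0.103) and 0.43 ± 0.21 on day 6 (adjusted p = 0.123).

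Of the 4 tested genes whose proteins sit on fibrils, Col12a1 rose on days 4 and 6 and Col16a1 on day 6. Col12a1 encodes a chain found on type I fibrils in dense connective tissue. It ranged from 579 to 985 on day 0, from 520 to 949 on day 2, from 985 to 1337 on day 4 and from 972 to 1484 on day 6. Day 4 was wholly above day 2, and 5 of 6 animals on each of days 4 and 6 were above all of day 0. The difference from day 0 was 0.57 ± 0.16 on day 4 (adjusted p = 0.0139) and 0.59 ± 0.16 on day 6 (adjusted p = 0.00537). That on day 4 from day 2 was 0.61 ± 0.15 (adjusted p = 0.0121). Without day 0 mouse 5 the day 4 call had an adjusted p of 0.0518. The dimmer probe set of Col12a1 passed in no comparison, with a difference of -0.01 ± 0.24 on day 4 from day 0.

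Col16a1, of a collagen known from skin and gut connective tissue, ranged from 636 to 967 on day 0, from 559 to 810 on day 2, from 896 to 1228 on day 4 and from 766 to 1339 on day 6. It differed on day 4 from day 2 by 0.42 ± 0.13 (adjusted p = 0.0304), with no overlap. That on day 6 from day 0 was 0.38 ± 0.13 (adjusted p = 0.0315). The day 6 call did not hold without day 0 mice 3 or 5 or day 6 mice 3, 7 or 21 (adjusted p up to 0.1), nor the day 4 call without day 2 mice 7 or 17 or day 4 mice 1 or 4 (up to 0.0912). Col14a1, a partner of fibril surfaces, ranged from 585 to 984 on day 0, from 584 to 870 on day 2, from 809 to 1558 on day 4 and from 724 to 1933 on day 6. It did not pass, and its difference on day 4 from day 2 was 0.58 ± 0.21 (adjusted p = 0.062). Col20a1 did not pass either, with 0.51 ± 0.21 on day 6 from day 0 (adjusted p = 0.0667).

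Col8a2 encodes a chain of the short-chain network of type VIII, known from the eye and from vessel walls, and was a dim gene with a peak on day 4. Its signals were 99.0, 114, 143, 132 and 69.1 on day 0. They ranged from 89.2 to 139 (median 103) on day 2, from 139 to 184 (median 166) on day 4 and from 50.9 to 106 (median 93.5) on day 6. Day 6 lay wholly below day 4, and day 4 wholly above day 2. Col8a2 on day 6 differed by -0.83 ± 0.17 from day 4, a fold of 0.564 (adjusted p = 0.00101), and by -0.30 ± 0.18 from day 0 (adjusted p = 0.206). The difference on day 4 was 0.53 ± 0.18 from day 0 (adjusted p = 0.0403) and 0.54 ± 0.17 from day 2 (adjusted p = 0.0348). Each of these day 4 calls did not hold without any 1 of 8 arrays, with adjusted p up to 0.138 and 0.0777. Array medians lay between 97.3 and 121, so Col8a2 was near the middle of all probe sets. Col8a1, the other chain, passed in no comparison, with -0.30 ± 0.18 on day 6 from day 0 (adjusted p = 0.229).

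**Figure D4:**
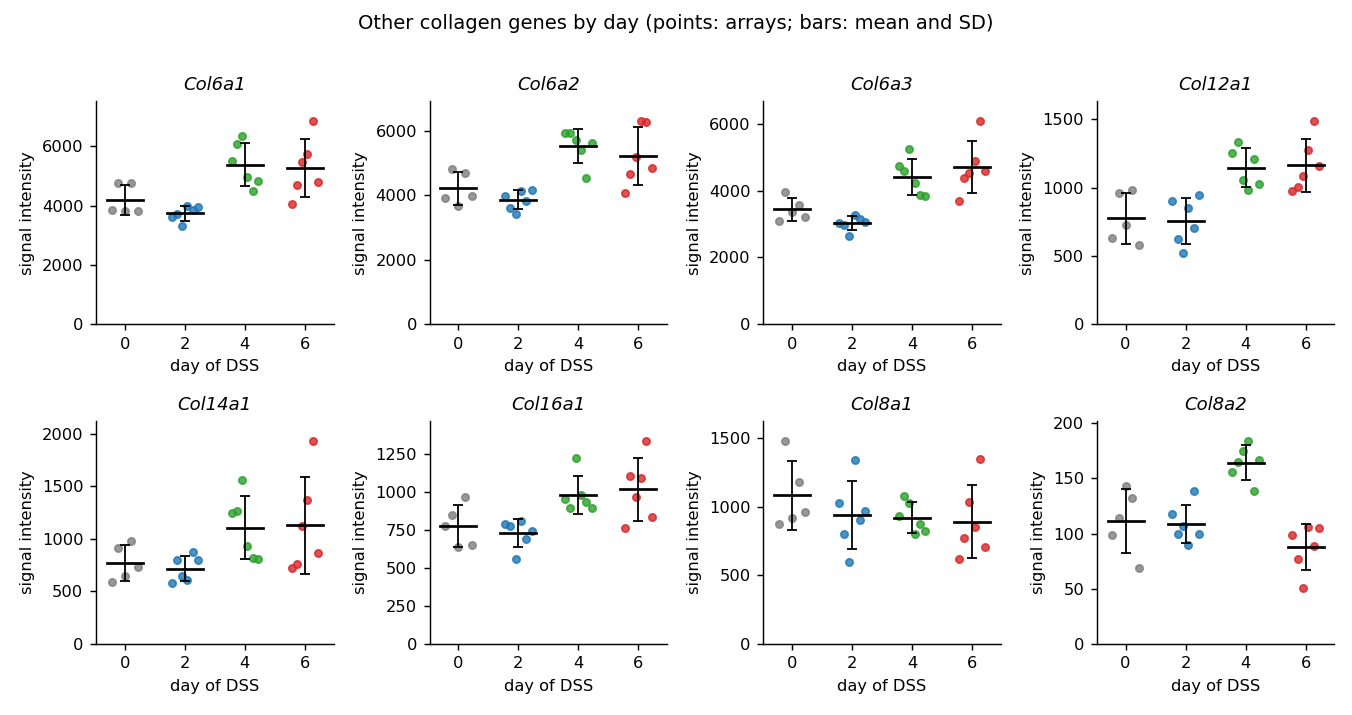
Signal intensity (y axis, from 0) of 8 collagen genes of the third group by day of DSS (x axis). Each point is 1 array, and the black bars are the mean and SD of 5 arrays on day 0 and 6 on each later day. The Col6a3 points reach 5235 on day 4 and 6069 on day 6, and the day 6 points of Col8a2, from 50.9 to 106, lie below its day 4 points.

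Col17a1 varied most between arrays. It encodes a collagen that spans the membrane of basal cells in squamous epithelium, where it is part of the hemidesmosome. Its signals were 90.7, 210, 67.5, 60.0 and 51.6 on day 0. They ranged from 2.0 to 303 (median 237) on day 2, from 10.2 to 515 (median 330) on day 4 and from 158 to 730 (median 303) on day 6. The lowest arrays, day 2 mouse 8 at 2.0 and day 4 mouse 8 at 10.2, stood far apart, and all days overlapped. Col17a1 did not pass. Its difference on day 6 from day 0 was 1.76 ± 0.71, a fold of 3.39 (adjusted p = 0.0589), and that on day 4 was 1.23 ± 0.71 (adjusted p = 0.247). With the hybridization control level as a covariate both turned below 0, to -0.18 on day 4 and -0.08 on day 6. Under some other alternatives Col17a1 passed. It passed on both days without the 4 arrays that stood apart, and with mouse number as a replicate block. Those 4 include its lowest arrays, day 2 mouse 8 and day 4 mouse 8, so leaving them out was not independent of Col17a1. On day 6 it also passed with a pseudocount of 64, with only the days compared in the fit, and with the beta-actin ratio as a covariate.

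The genes of squamous epithelium varied with Col17a1 over the arrays. Day 2 mouse 8 and day 4 mouse 8 had the lowest means of 9 such genes on the log2(signal + 16) scale, at 6.07 and 6.39, against 8.71 to 12.05 on the other arrays. Day 6 mouse 21 had the highest of both, with 730 for Col17a1 and 12.05 for the squamous genes. Their summed signal ranged from 7119 to 12945 on day 0, from 809 to 22232 on day 2, from 1043 to 35314 on day 4 and from 22430 to 52766 on day 6, and 3 of the 9 rose on day 6 against day 0, beside 18.1% of all genes. With their mean level as a covariate, 8 of 27 collagen genes passed on day 4, where 14.6% of all genes did. On day 6 it was 11, where 26% did, and Col17a1 passed on neither day. That level ranged from 8.71 to 9.85 on day 0 and from 10.35 to 12.05 on day 6, without overlap. Its part in a day 6 difference and that of the day therefore cannot be told apart.

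**Figure D5:**
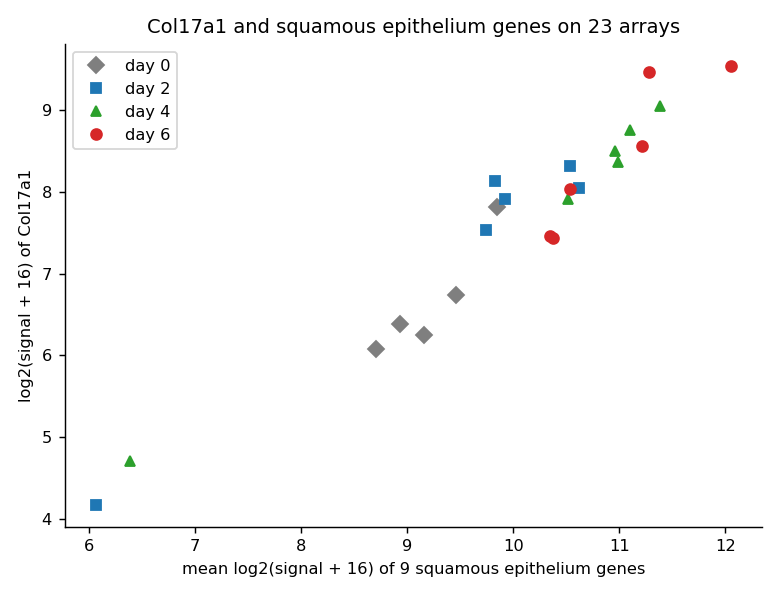
Level of Col17a1 (y axis, log2(signal + 16)) against the mean level of 9 genes of squamous epithelium (x axis, the same scale) on the 23 arrays, with a symbol for each day. The arrays at the lower left are day 2 mouse 8 and day 4 mouse 8, at 6.07 and 6.39 on the x axis, and day 6 mouse 21 is at the upper right.

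Other collagens of the cell membrane and of anchoring fibrils did not pass. Col13a1 had a difference of 0.29 ± 0.24 on day 6 from day 0 (adjusted p = 0.39) and Col23a1 one of 0.08 ± 0.27 (adjusted p = 0.853). Col7a1, of the anchoring fibrils that hold squamous epithelium to its bed, ranged from 56.0 to 202 on day 6 and from 70.5 to 114 on day 0, with a difference of 0.35 ± 0.24 (adjusted p = 0.28). The genes of this group that were too dim to be tested were Col6a5, Col9a1, Col9a2, Col9a3, Col10a1, Col19a1, Col22a1, Col25a1 and Col26a1. The 15 untested genes of all groups had 28 probe sets, of which the brightest had a median of 76.9 over the arrays and a single highest signal of 179.

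Few animals gave most of the extremes. Day 6 mouse 21 was the highest of its day in 18 of the 27 tested genes, and in 13 of the 14 that rose on day 6. Day 6 mouse 1 was the lowest of its day in 13 genes. On day 4, mouse 4 was the highest in 14 genes, while mouse 8 was the lowest in 12 and mouse 7 in 10. Without day 6 mouse 21, 10 genes passed on day 6 against day 0, from 14. The share of all genes in that fit is not given.

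Several probe sets of 1 gene gave the same direction and differed in size. Of the 16 genes with more than 1 tested probe set, the brightest and the dimmest had the same sign on day 6 against day 0 in 15, all but Col23a1. Of the 9 among them that rose, the dimmer probe set had the larger difference in 5. For Col1a2 the dimmer probe set gave 1.27 ± 0.20 (adjusted p = 4.45e-05 in a fit over all kept probe sets) and the brighter gave 0.58. For Col3a1 it gave 1.11 ± 0.17 (adjusted p = 4.14e-05), and the brighter gave 0.46. Col4a1 ran the other way, with 0.73 ± 0.16 from the dimmer and 0.98 from the brighter. The dimmer probe sets of Col27a1, at 0.65 ± 0.20 (adjusted p = 0.0181), and Col20a1, at 1.26 ± 0.42 (adjusted p = 0.0247), passed where the brighter did not. The size of a collagen difference therefore depended on the probe set, and the cause was not tested.

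Genes that make, process, bind and degrade collagen were set beside the collagens. On day 2 against day 0 none of those tested passed. Over all genes 12.1% were higher on day 4 and 18.1% on day 6 against day 0, which stand beside each count of these lists. Of 15 tested genes for modification and folding of the chains, 2 rose on day 4, a share near that of all genes, and 10 on day 6 against day 0, and none fell. Plod2, a lysyl hydroxylase that prepares cross-links, averaged 789 ± 256 on day 6 and 373 ± 59.9 on day 0 (SD), a difference of 1.01 ± 0.18 (adjusted p = 0.000195). P3h1, a prolyl hydroxylase, and its partner Crtap differed on day 6 by 0.74 ± 0.19 (adjusted p = 0.00458) and 0.57 ± 0.12 (adjusted p = 0.000533). On day 4 against day 2, 3 of these 15 genes rose and 1 fell, beside 9.43% of all genes higher and 4.09% lower. Serpinh1, the collagen chaperone, was among those that rose, by 0.47 ± 0.14 (adjusted p = 0.0301).

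Of 9 tested genes for export, trimming and cross-linking, 5 rose on day 4 and 6 on day 6 against day 0. Lox, the enzyme that cross-links fibrils, averaged 1239 ± 689 on day 6 and 358 ± 66.3 on day 0, a difference of 1.61 ± 0.25 (adjusted p = 3.47e-05). Bmp1, which cuts the end of procollagen, averaged 558 ± 115 on day 6 and 277 ± 77.5 on day 0, a difference of 0.99 ± 0.17 (adjusted p = 8.88e-05). Pcolce, which speeds that cut, averaged 3179 ± 795 on day 6 and 1457 ± 168 on day 0, a difference of 1.09 ± 0.15 (adjusted p = 1.18e-05).

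The largest differences were among 13 tested genes of collagen breakdown and its inhibitors, of which 10 rose on day 4 and 11 on day 6 against day 0, and 1, Timp4, fell on day 6. The stromelysin Mmp3 averaged 3633 ± 1434 on day 6 and 88.8 ± 28.4 on day 0, a difference of 5.07 ± 0.27 (adjusted p = 1.36e-11). Mmp10, a related protease, averaged 2251 ± 1210 on day 6 and 54.3 ± 17.2 on day 0, a difference of 4.87 ± 0.35 (adjusted p = 1.07e-09). The collagenase Mmp13 averaged 3114 ± 1515 on day 6 and 134 ± 34.3 on day 0, a difference of 4.26 ± 0.39 (adjusted p = 4.32e-08).

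Of 6 tested collagen receptors, 3 rose on day 4 and 4 on day 6 against day 0. Ddr2, a receptor kinase for fibrillar collagen, averaged 2071 ± 457 on day 6 and 1170 ± 107 on day 0, a difference of 0.79 ± 0.11 (adjusted p = 8.07e-06). Lair1, an inhibitory receptor of leukocytes, differed by 1.16 ± 0.25 (adjusted p = 0.00118). Of 16 laminins and other basement membrane partners, 7 rose on day 4 and 8 on day 6, among them the laminin chain Lama4 with 0.81 ± 0.20 (adjusted p = 0.00258) and nidogen Nid1 with 0.75 ± 0.14 (adjusted p = 0.000172) on day 6. Of 12 partners of fibrils, 9 rose on day 4 and 10 on day 6. Lum, a small proteoglycan of fibrils, differed by 1.12 ± 0.16 on day 6 (adjusted p = 1.01e-05). Fmod, a like proteoglycan, rose by 1.14 ± 0.18 on day 4 against day 0 (adjusted p = 0.00034) and fell on day 6 against day 4, with a difference of -0.93 ± 0.17 (adjusted p = 0.000469).

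Markers of collagen-making and other cells also moved over the days, beside 12.1% of all genes higher on day 4 and 18.1% on day 6. Of 10 fibroblast genes, among them Pdgfra and Thy1, 8 rose on day 4 and 8 on day 6 against day 0. Among these 10 genes Dcn, Dpt and Lum also stand among the fibril partners. The summed signal of the 10 had medians of 22246, 23929, 32274 and 35838 on days 0, 2, 4 and 6. Its ranges were 19851 to 26034, 21200 to 25644, 24760 to 38963 and 32029 to 50873. Of 9 endothelial genes 6 rose on each of days 4 and 6, with summed signals of 3642 to 6028 on day 4 and 3888 to 6803 on day 6, against 2804 to 3366 on day 0. Of 6 macrophage genes 3 rose on day 4 and 6 on day 6, and of 3 tested neutrophil genes 0 passed on day 4 and 3 rose on day 6. Their part in the collagen differences was not tested.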

How the data were processed

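RNA of 23 mouse colons was hybridized to Affymetrix Mouse Genome 430 2.0 arrays from 5 µg total RNA, per the labels' protocols. Deposited by the authors was 1 linear intensity for each probe set and array, the signal of MAS5 per the submitters' processing notes, which give no version. In the values each array's mean, trimmed by 2% at each end, was 500, so no further normalization was applied, and a change in total RNA per cell cannot be seen. Of 45101 probe sets, 64 controls were left out, and the annotation of the platform, possibly old, held 1 symbol for 34945, several for 932 and none for 9160. Probe sets with 1 symbol were kept where at least 5 arrays exceeded the median of their array, leaving 12464 genes, each with its brightest probe set by mean. The log2(signal + 16) values were fitted with limma 3.58.1 in R 4.3.3 (lmFit, eBayes with trend), all days in 1 fit, tests two-sided, over 5 comparisons, which share arrays. Folds on this scale understate changes of dim genes. The number of arrays limits precision. Nothing in the labels ties equal mouse numbers of different days to 1 animal. Collagen classes follow textbook roles. All collagen genes that passed are described, and of each of 18 lists with 180 entries up to 3 genes with the largest change among those that passed, of which the text gives a part, or else those with the lowest p. Members and lists were chosen with earlier results of these data known. The fit was tested on simulated data.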

Additional observations from a re-analysis of the deposited data

Results flagged for a closer look

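In 7 of 108 sets of arrays of 1 gene and 1 day, 1 array stood apart from the others by more than Dixon's 95% limit, and chance alone does so in about 1 of 20. For 3 genes this was day 2 mouse 7, the lowest of its day. Its Col3a1 signal was 11578 where the other 5 animals had 13329 to 14313, its Col4a1 signal was 3551 where they had 4743 to 5493, and its Col18a1 signal was 893 where they had 1135 to 1287. On day 4, mouse 7 was low in Col6a2, at 4552 against 5390 to 5940 in the others, and mouse 4 was high in Col16a1, at 1228 against 896 to 981. Col17a1 was 2.0 on day 2 mouse 8, against 168 to 303 in the others, and 10.2 on day 4 mouse 8, against 225 to 515, the arrays lowest in squamous genes.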

How the results depend on the processing

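The 46 calls of single genes kept their direction under the alternatives tried, apart from a pair on day 4 against day 0. Col4a5 was -0.06 with the beta-actin ratio as a covariate, and Col12a1 was -0.01 with the lowest-mean probe set, an alternative chosen after seeing the data. Col17a1, which did not pass with the chosen settings, passed against day 0 under some alternatives. It turned to -0.18 on day 4 and -0.08 on day 6 with the hybridization control level as a covariate. The number of calls kept was 46 with a pseudocount of 1 or 64, 42 with quantile normalization, 31 with median centring, 20 with mouse number as a replicate block, 15 with the hybridization controls and 14 with the beta-actin ratio. Col18a1 and Col4a2 on day 6 against days 0 and 4, and Col4a1 and Col5a2 on day 6 against day 0, passed under all 38 alternatives. The number of collagen genes that passed moved by over 1.5 times as follows. The share of all genes that passed is given in brackets. On day 4 against day 0 it was 0 (0.642%) with the beta-actin ratio and 1 (1.37%) with the hybridization controls, from 10 (16.4%). On day 6 against day 0 it was 5 (8.56%) with the hybridization controls, from 14 (32.4%). On day 4 against day 2 the count was 13 (13.5%). It was 7 (7.38%) with median centring, 1 (0.698%) with the replicate block, 0 (0.233%) with the beta-actin ratio and 1 (0.449%) with the hybridization controls. On day 6 against day 4 it was 9 (22.8%). It was 5 (15.9%) with the replicate block, 5 (12.2%) with the beta-actin ratio and 4 (16.9%) with the lowest-mean probe set. Leaving out each array in turn gave 0 to 0 genes on day 2 against day 0. It gave 6 to 12 on day 4 and 10 to 15 on day 6 against day 0. It gave 7 to 15 on day 4 against day 2 and 7 to 10 on day 6 against day 4. The share of all genes in those fits is not given. Mouse numbers showed little pairing of the animals. Of 17 same-numbered pairs, 3 correlated over 0.1 in their deviations (range -0.16 to 0.70), and 3 of 17 arrays correlated best with their own number. The highest, 0.70, was that of mouse 8 on days 2 and 4, the arrays lowest in squamous genes. The block left 8 residual degrees of freedom, from 19. The filter leaves dim collagens untested, which is no sign that they are not expressed.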
